A study of Mus musculus with 13 samples.

Results

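The levels of 8 genes of the stearoyl-CoA desaturase and front-end fatty acid desaturase families were compared in mouse skin: *Scd1*, *Scd2*, *Scd3*, *Scd4*, *Fads1*, *Fads2*, *Fads3*, and *Fads6*. The members are these gene families taken by name, a choice made with earlier results of these data known, and the rule uses no measured value. All 8 were found among the 49315 genes counted by the authors, and all 8 were among the 20168 genes with enough counts to test. RNA-Seq libraries were made from full-thickness back skin of 4-day-old (P4) mice, with 3 libraries from WT littermates and 3 libraries labelled DKO, from *K14Cre+Kctd1fl/flKctd15fl/fl* mice, at 1 library per mouse; the labels give no allele for WT beyond that name. In the DKO animals, Cre driven by the keratin 14 promoter removes a floxed part of *Kctd1* and of *Kctd15*, which encode BTB domain proteins, in keratinocytes and their appendages, while muscle, fat, nerve, and dermal cells of the same sample keep both genes. The question was how skin lacking both proteins in keratinocytes differs from WT skin. A further 7 libraries of the series, from epidermis of 3-week-old mice, hold a count of 0 for every gene in the files used and are not analysed here.

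Desaturases place double bonds in fatty acyl chains, taking electrons from cytochrome b5 in the endoplasmic reticulum membrane. Stearoyl-CoA desaturases act on saturated acyl-CoAs at the ninth carbon and make the monounsaturated palmitoleate and oleate that fill triglycerides, wax esters, and cholesterol esters. In mouse skin, SCD1 is a known product of sebaceous glands, and mice without it have atrophied sebaceous glands and a dry coat. Front-end desaturases instead add a double bond between an existing one and the carboxyl end, which turns dietary essential fatty acids into arachidonate and other polyunsaturated fatty acids.

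The 4 *Scd* genes lie in a cluster on chromosome 19 of GRCm38, the build of the files. *Scd3* (ENSMUSG00000025202) is at chr19:44203288-44244016, *Scd2* (ENSMUSG00000025203) at chr19:44293676-44306864, *Scd4* (ENSMUSG00000050195) at chr19:44333092-44346743, and *Scd1* (ENSMUSG00000037071) at chr19:44394451-44407709. *Scd1* is read from the minus strand and the other genes from the plus strand. Their coding sequences in GENCODE M21 run over 6 exons each. *Scd1* was 91.5% identical to *Scd3* over 1065 aligned coding bases, 90.3% identical to *Scd2*, and 84.6% identical to *Scd4* over 1059 aligned coding bases. The longest run shared without a mismatch was 185 bases between the *Scd1* and *Scd3* transcripts, longer than a 150-base read, although its mate may fall outside the run, and 147 bases between *Scd1* and *Scd2*.

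One stretch of 60 coding bases was the same in all 4 genes, so a read covering only these bases would match each of them. It is shown once, from *Scd1* (minus strand, coding bases 586 to 645, which span an intron within chr19:44400365-44401742).
Shared Scd stretch: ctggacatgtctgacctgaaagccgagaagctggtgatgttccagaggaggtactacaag

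The least alike ungapped stretch of the same length, which shows how reads can tell the genes apart, had 29 of 60 positions in common. It begins at coding base 297 of *Scd1* (within chr19:44403238-44406488, across an intron), 306 of *Scd2*, 309 of *Scd3*, and 291 of *Scd4*, and capitals mark bases that differ from *Scd1*.
Scd1: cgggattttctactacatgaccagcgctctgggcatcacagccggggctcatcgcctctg
Scd2: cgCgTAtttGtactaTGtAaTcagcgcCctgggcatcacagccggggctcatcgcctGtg
Scd3: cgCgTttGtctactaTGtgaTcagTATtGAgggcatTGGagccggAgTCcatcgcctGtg
Scd4: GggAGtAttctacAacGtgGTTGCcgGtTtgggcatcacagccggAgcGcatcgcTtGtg
*Scd2* differed from *Scd1* at 10 of these 60 positions, *Scd4* at 17, and *Scd3* at 18. Over the whole transcripts, 4.66% of the 50-base windows of *Scd1* also occurred in a transcript of another gene, compared with 4.01% for *Scd2*, 6.69% for *Scd3*, and 6.32% for *Scd4*. The genes sharing them included the other *Scd* genes and an unprocessed pseudogene in the cluster. For *Scd3* and *Scd4* they also included several genes outside the *Scd* family. How the counting treated such reads is not given in the sources used here. The split of counts between *Scd* genes, and between them and the other genes sharing windows, is uncertain to that extent. A 61-base overlap of *Scd2* with the microRNA gene *Mir5114* adds to it.

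Of the front-end desaturases, *Fads3* (ENSMUSG00000024664, chr19:10041548-10059671, plus strand), *Fads2* (ENSMUSG00000024665, chr19:10064164-10101503, minus strand), and *Fads1* (ENSMUSG00000010663, chr19:10182888-10196870, plus strand) form a separate cluster on chromosome 19, with 12 coding exons each. *Fads6* (ENSMUSG00000044788) is at chr11:115279622-115297663, on the minus strand. The *Fads* coding sequences were less alike, from 55.2% identity between *Fads1* and *Fads6* to 69.8% between *Fads2* and *Fads3*. Their most alike stretch of 60 bases, which starts at coding base 1119 of *Fads1* (within chr19:10194350-10194500, across an intron), 1110 of *Fads2*, and 1125 of *Fads3*, had 53 positions in common, with capitals for bases that differ from *Fads1*.
Fads1: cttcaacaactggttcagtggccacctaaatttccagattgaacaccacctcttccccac
Fads2: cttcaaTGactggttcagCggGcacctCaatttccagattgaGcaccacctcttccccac
Fads3: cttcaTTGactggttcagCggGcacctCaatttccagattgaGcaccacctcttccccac
No 50-base window of *Fads1* or *Fads6* occurred in a transcript of another gene, and 5 windows were shared between *Fads2* and *Fads3*. The files count *Fads2* over 1508 bases, whereas its GENCODE M21 transcript has 3150 bases and extends farther at both the 3' and the 5' end. The level of *Fads2* per length therefore rests on the part counted.

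Library depth was 11263863 to 17643043 counts on genes. *Kctd1* had 432 ± 19 normalized counts (SD, n = 3) in WT and 742 ± 240 in DKO, and *Kctd15* had 745 ± 15.5 and 1321 ± 189. Only the floxed part of each gene is removed, so counts over the whole gene do not check the labels, and both were higher in every DKO library. A normalized count here is a count scaled to the same effective library size by the trimmed mean of M values. DKO replicate 1 stood apart from the other libraries. Its summed normalized counts of 23 skeletal muscle markers were 347380, compared with 164389 and 164922 in the other DKO libraries and 101243 to 115959 in WT. Sums over 14 hair follicle markers were 77500 in DKO replicate 1, 188721 and 141538 in DKO replicates 2 and 3, and 189675 to 215548 in WT. In full-thickness skin, fewer cells of a type and less RNA per cell cannot be told apart.

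*Scd1* was the most abundant desaturase gene in both groups and showed the best supported difference between them. In order of replicate number, the WT libraries held 21992, 24603, and 21261 normalized counts and the DKO libraries 6916, 11432, and 9105. Every DKO library lay below every WT library, with DKO replicate 1 lowest. The mean was 22619 ± 1757 (SD, n = 3) in WT and 9151 ± 2259 in DKO, or 40.5% of WT. The log2 fold change was -1.31 ± 0.19 (SE) and the Benjamini-Hochberg adjusted p was 0.0617 in the edgeR quasi-likelihood fit, so *Scd1* was not called at the 0.05 threshold. DESeq2 called it lower, with an adjusted p of 2.65e-08. With DKO replicate 1 left out, the edgeR fit gave *Scd1* -1.16 on the log2 scale and an adjusted p of 0.0106, and with DKO replicate 2 left out, -1.49 and 0.0143. When any of the other 4 libraries was left out, the edgeR adjusted p was 0.161 to 0.310, with no call.

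*Scd3*, whose expression is known to be largely restricted to skin and gland tissue, had the largest fold difference of the 8 genes. Its normalized counts were 626, 694, and 524 in WT and 35.5, 226, and 91.6 in DKO. The groups did not overlap, and the DKO libraries differed among themselves by more than the WT libraries did, with a coefficient of variation of 83.2% against 13.9%. The mean was 615 ± 85.5 in WT and 118 ± 98 in DKO. The log2 fold change by edgeR was -2.37 ± 0.48 (SE) with an adjusted p of 0.199 and no call, whereas DESeq2 called *Scd3* lower with an adjusted p of 0.0498. DKO replicate 1, from 27 counts, was at 5.77% of the WT mean, DKO replicate 3 at 14.9%, and DKO replicate 2 at 36.8%. Without DKO replicate 1, the log2 fold change was -1.98 and the edgeR adjusted p was 0.0173. Without DKO replicate 2 it was -3.23, with an edgeR adjusted p of 0.0143. When any of the other 4 libraries was left out, the edgeR adjusted p was 0.290 to 0.684, with no call.

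*Scd2*, the form best known from brain and from neonatal tissue, had values that ran into each other between groups. Its normalized counts were 5601, 5655, and 6883 in WT and 5316, 6060, and 4923 in DKO. The highest DKO library lay above 2 of the WT libraries. The log2 fold change was -0.15 ± 0.14 (SE), with an adjusted p of 0.918 by edgeR. *Scd4*, known from heart, was near the low end of the genes tested, at 18.3, 30.6, and 45.3 normalized counts in WT and 48.6, 41.9, and 18.9 in DKO. These values rest on 18 to 53 counts per library, the groups overlapped, and the log2 fold change of 0.19 ± 0.44 turned to -0.08 without WT replicate 1 or without DKO replicate 1.

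*Fads2*, which adds a double bond at the sixth carbon in the first step from essential fatty acids to arachidonate, had the clearest separation among the front-end desaturases. It had 285, 311, and 299 normalized counts in WT and 160, 268, and 216 in DKO. The groups did not overlap, although DKO replicate 2 lay close under the lowest WT library. The mean was 298 ± 12.6 in WT and 215 ± 53.8 in DKO, or 72% of WT. The log2 fold change was -0.47 ± 0.20 (SE), with an unadjusted p of 0.0380 by edgeR and an adjusted p of 0.621, so no call was made. Without DKO replicate 1 it was -0.32.

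*Fads1*, which acts at the fifth carbon on the product of *Fads2* and elongation, was at 669, 679, and 636 normalized counts in WT and 572, 707, and 600 in DKO. The highest of the 6 libraries was a DKO library, and the log2 fold change of -0.08 ± 0.14 (SE) had an adjusted p of 0.957 by edgeR. *Fads3*, which acts on sphingoid bases, was at 2732, 2521, and 2008 in WT and 1238, 2268, and 2033 in DKO. DKO replicate 1 was at 51.2% of the WT mean while the other DKO libraries lay within the WT range. Its log2 fold change was -0.39 ± 0.22 with an edgeR adjusted p of 0.791, and it was -0.19 without DKO replicate 1. *Fads6* had 228, 246, and 189 normalized counts in WT and 151, 227, and 199 in DKO, with overlapping groups, a log2 fold change of -0.20 ± 0.20, and an edgeR adjusted p of 0.930.

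**Figure D1:**
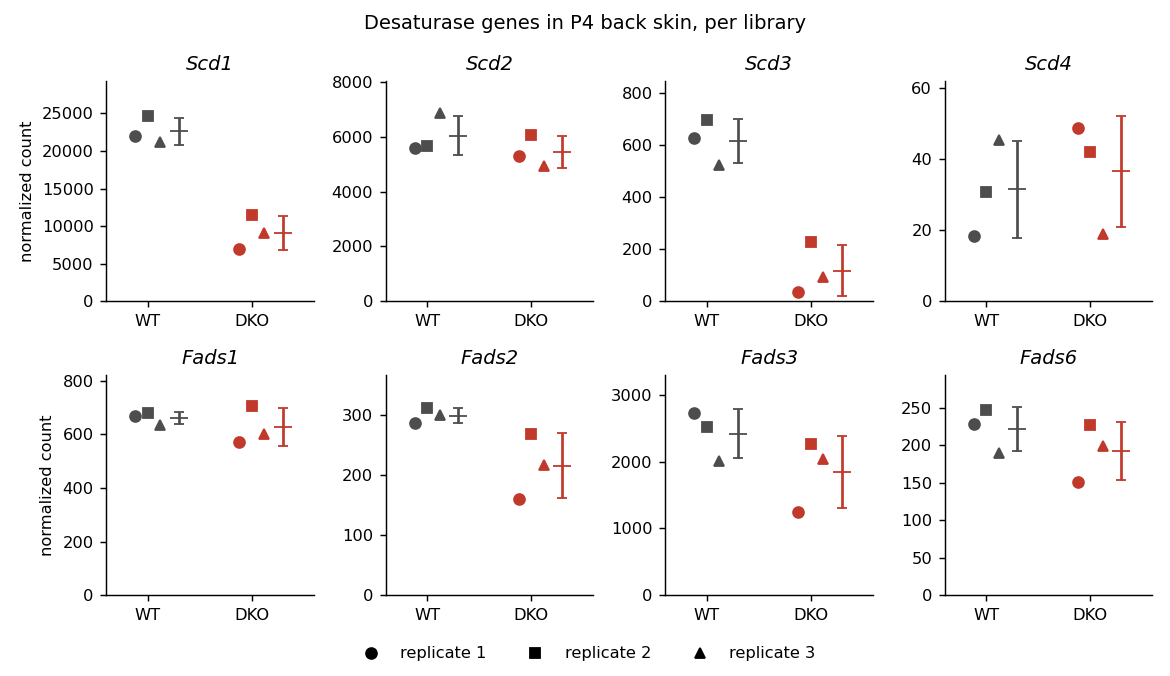
Normalized counts (y axis, from 0 in each panel) of the 8 desaturase genes in the 3 WT and 3 DKO libraries of P4 back skin; each symbol is 1 library, and the line with bars beside the symbols is the group mean ± SD. *Scd1*, *Scd3*, and *Fads2* have no overlap between groups, and DKO replicate 1 (red circle) is the lowest library for 6 of the 8 genes.

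Counted together, 0 of the 8 members were called lower by edgeR at an adjusted p under 0.05 and a log2 fold change under -1, where 0.0298% of all genes tested were called lower. By DESeq2 under the same thresholds, 2 of 8 were called lower (*Scd1* and *Scd3*), compared with 0.285% of all genes it tested. An unadjusted edgeR p under 0.05 with lower expression in DKO was found for 3 of 8 (*Scd1*, *Scd3*, and *Fads2*), against 2.54% of all genes. The same 3 members were lower in DKO without overlap between groups, against 5.96% of all genes. No member was called higher by either tool or had an unadjusted edgeR p under 0.05 with higher expression in DKO. Over all genes, edgeR called 8 higher and DESeq2 called 98 higher. An unadjusted edgeR p under 0.05 with higher expression was found for 1000 of 20168 genes, so 0 of 8 members is not informative. With 1 library left out, separation is easier to reach for any gene. The number of members lower without overlap was 5 without WT replicate 3, where 10.4% of all genes were, and 5 without DKO replicate 2, where 15.2% of all genes were. It was 3 when any other library was left out, against 8.56% to 11.8% of all genes. With total counts as the scaling it was 4, against 7.21%.

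The label numbers gave a further view of the same libraries. WT replicate 3 and DKO replicate 1 carry 1 number and the other 4 libraries carry another, and the labels do not say what the number marks. *Scd1* in DKO was at 32.5% of WT within the pair, 1 library against 1, and at 44.1% within the other 4 libraries. *Scd3* was at 6.77% and 24.1%, and *Fads2* at 53.7% and 81.2%. *Fads3* was at 61.7% and 81.9%, and *Fads6* at 80.0% and 89.9%. In these 5 genes every DKO library lay below every WT library of the same number. The pair with DKO replicate 1 had the lower percentage each time. The share of all genes that meet this was not computed, so the count of 5 has no background to be read against. *Fads3* and *Fads6* overlapped between groups over all 6 libraries. *Scd2* (77.2% and 97.6%) and *Fads1* (90.0% and 97.0%) were lower within the pair but overlapped within the other 4 libraries, and *Scd4* (107% and 124%) was not lower in either.

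Compared per length, in RPKM (counts per kb of counted length, scaled by effective library size), the order of levels in WT was *Scd1* (308 ± 23.9), *Scd2* (73.0 ± 8.77), *Fads3* (48.8 ± 7.50), *Fads2* (13.0 ± 0.55), *Fads1* (12.6 ± 0.43), *Scd3* (11.7 ± 1.62), *Fads6* (2.19 ± 0.29), and *Scd4* (0.55 ± 0.24), as means ± SD over 3 libraries. *Fads2*, *Fads1*, and *Scd3* did not differ beyond their spread. In DKO, *Scd1* (125 ± 30.8), *Scd2* (65.6 ± 6.98), and *Fads3* (37.2 ± 10.9) kept the same places, followed by *Fads1* (11.9 ± 1.36), *Fads2* (9.38 ± 2.35), *Scd3* (2.24 ± 1.86), *Fads6* (1.91 ± 0.38), and *Scd4* (0.64 ± 0.27). *Fads1* and *Fads2* overlapped there within their spread, as did *Scd3* and *Fads6*. Over all 6 libraries, the mean level per length of *Scd1* exceeded that of 99.5% of the genes tested, and that of *Scd4* exceeded 9.63%.

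The summed level per length of the 4 *Scd* genes was 379, 417, and 384 RPKM in WT and 160, 234, and 186 in DKO, without overlap. Its mean was 393 ± 20.7 in WT and 193 ± 37.6 in DKO, or 49.1% of WT. The 4 *Fads* genes together had 82.5, 79.8, and 67.5 in WT and 44.4, 73.1, and 63.8 in DKO, and these ranges overlapped. Within the *Scd* total, *Scd1* made up 78.3 ± 2.48% in WT and 64.1 ± 4.51% in DKO, *Scd2* made up 18.6 ± 2.74% and 34.5 ± 4.91%, and *Scd3* made up 2.96 ± 0.32% and 1.06 ± 0.72%. *Fads3* had the largest share of the *Fads* total in both groups, at 63.5 ± 3.39% in WT and 61.0 ± 4.18% in DKO.

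**Figure D2:**
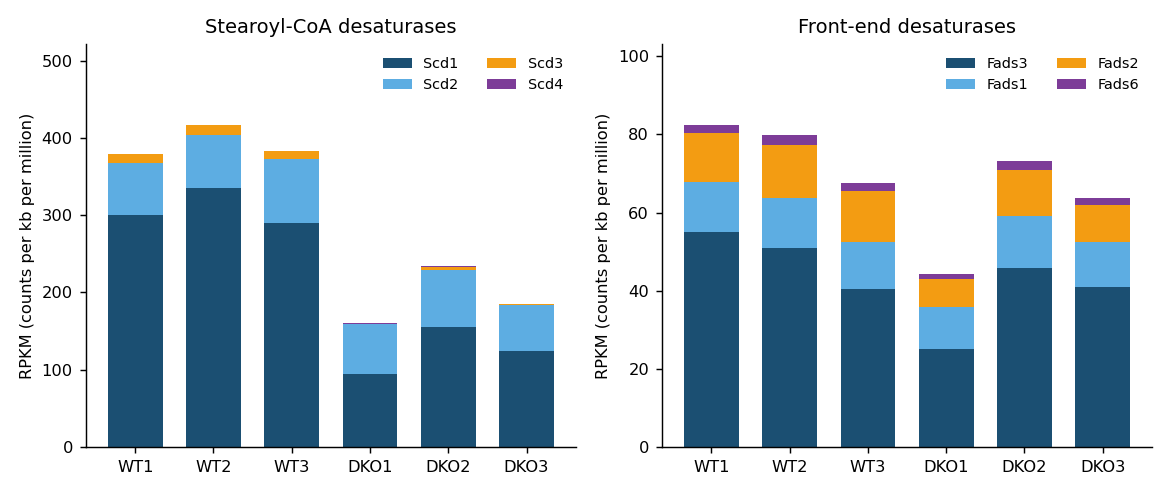
Stacked bars of the level per length in RPKM (y axis) for the stearoyl-CoA desaturases (left) and the front-end desaturases (right) in each of the 6 libraries. The *Scd* bars are lower in all DKO libraries, mainly from the *Scd1* part (mean 308 in WT and 125 in DKO). The *Scd3* part (11.7 and 2.24) and the *Scd2* part (73.0 and 65.6) add far less to the difference. The *Fads* bars overlap between groups.

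Ratios of counts within a library, which do not depend on how libraries are scaled, compared members with each other for 6 pairs. The log2 ratio of *Scd1* to *Scd2* was 1.97, 2.12, and 1.63 in WT and 0.38, 0.92, and 0.89 in DKO, an average difference of -1.18. The log2 ratio of *Scd1* to *Scd3* was 5.13, 5.15, and 5.34 in WT and 7.58, 5.66, and 6.63 in DKO, a difference of 1.41. Both pairs had no overlap between groups, each with p = 0.1 by a two-sided exact permutation test, the smallest p that 3 against 3 libraries allow, and 0.15 after Benjamini-Hochberg adjustment over the 6 pairs. The log2 ratio of *Scd1* to *Scd4* differed by -1.53 and overlapped between groups (exact permutation p = 0.2, adjusted 0.24).

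Among the front-end desaturases, the log2 ratio of *Fads1* to *Fads2* was 1.23, 1.13, and 1.09 in WT and 1.83, 1.40, and 1.47 in DKO, which is 0.42 higher in DKO without overlap (exact permutation p = 0.1, adjusted 0.15). The log2 ratio of *Fads2* to *Fads3* differed by -0.08 and overlapped (exact permutation p = 0.7). The log2 ratio of *Scd1* to *Fads2* was 6.27, 6.31, and 6.15 in WT and 5.42, 5.41, and 5.39 in DKO, a difference of -0.83 (exact permutation p = 0.1, adjusted 0.15). Its SD over the DKO libraries, 0.015, was the smallest of the 6 pairs, although the normalized count of each gene differed between these libraries. *Fads2* rested on 122, 243, and 217 counts there. The spread that counting alone gives such a ratio was not computed, so a constant proportion cannot be read from this SD.

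**Figure D3:**
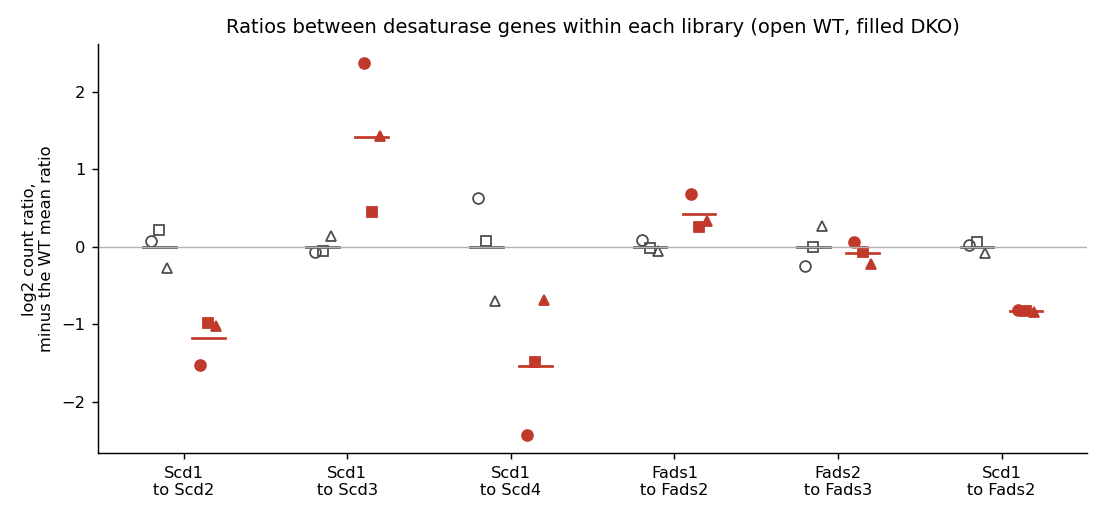
Log2 count ratios between desaturase genes within each library, with the WT mean of each pair set to 0 (y axis); open symbols are WT, filled red symbols are DKO, symbol shape gives the replicate (circle 1, square 2, triangle 3), and short lines are group means. The ratio of *Scd1* to *Fads2* differs by -0.83 in DKO, and its spread over the DKO libraries is the smallest of the 6 pairs. *Fads2* rests there on 122 to 243 counts. The ratio of *Scd1* to *Scd3* spreads from 5.66 to 7.58 over the DKO libraries before centring.

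The sum of a marker list had the same order over the DKO libraries as several members. Summed normalized counts of 16 sebaceous gland markers, which do not include a member, were at 59.3%, 90.3%, and 70.1% of the WT mean in DKO replicates 1 to 3, and the lowest WT library was at 92.2%. *Fads2* stood at 53.8%, 89.9%, and 72.4% of its WT mean in the same libraries, and *Scd1* at 30.6%, 50.5%, and 40.3%. The sebaceous sum weighs abundant genes most. *Krt79*, one of the 16 and named here after its values were seen, had 6382 normalized counts in DKO replicate 2. It stood at 69.6%, 166%, and 92.7% of its WT mean, whereas *Far2*, also on the list, stood at 17.2%, 41.0%, and 32.5%. The closeness of the sum to *Fads2* therefore depends on which genes are abundant. The hair follicle sum was at 37.6%, 91.5%, and 68.6%, the skeletal muscle sum at 322%, 153%, and 153%, and the keratinocyte sum at 124%, 154%, and 120%. Adipocyte sums were at 167%, 91.9%, and 82.0% and overlapped between groups, as did Schwann cell and myelin sums. No marker of these 6 lists was at 0 in every library. The part of these cell types in the desaturase values was not tested. With library sizes computed without the muscle list, *Scd1* stood at -1.32 on the log2 scale, with an edgeR adjusted p of 0.0410.

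**Figure D4:**
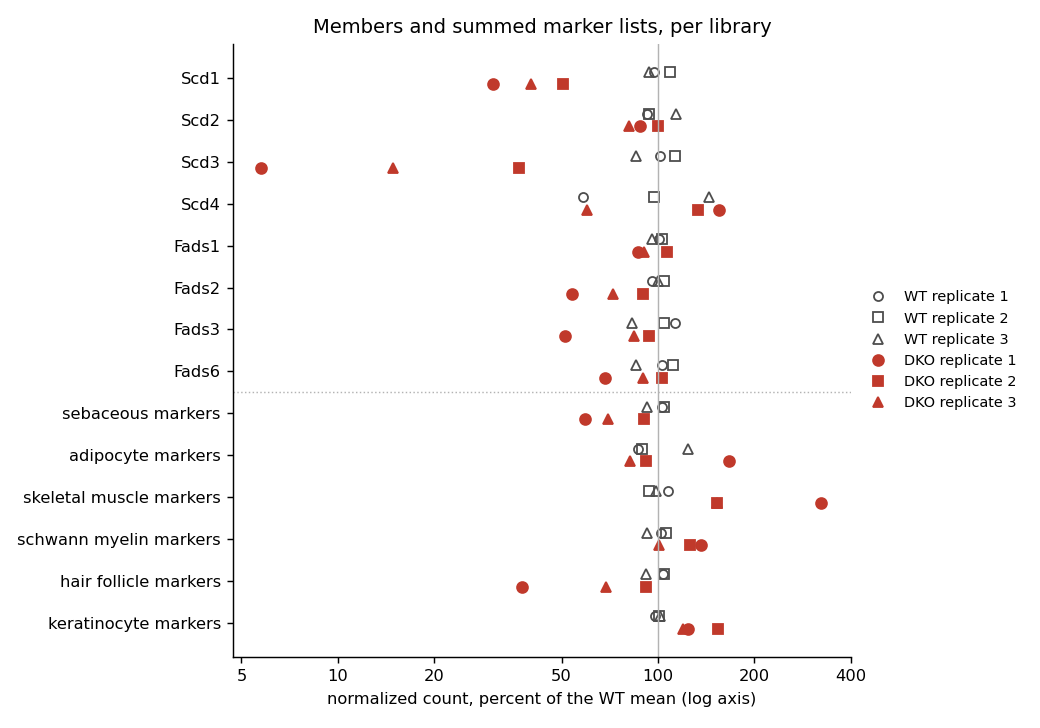
Normalized counts as a percentage of the WT mean (x axis, log scale) for the 8 desaturase genes (above the dotted line) and for the summed counts of 6 cell type marker lists (below it); open symbols are WT libraries and red symbols are DKO libraries. *Scd3* reaches 5.77% in DKO replicate 1 and 36.8% in DKO replicate 2, the sebaceous and hair follicle sums are lowest in DKO replicate 1, and the skeletal muscle sums of DKO replicates 2 and 3 coincide at 153%.

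Among the sebaceous markers, 13 of 16 had a log2 fold change below 0, and 8 had an unadjusted edgeR p under 0.05 with lower expression in DKO. None was called by edgeR, and 4 were called lower by DESeq2. Over all 20168 genes tested by edgeR, 9498 were below 0 and 512 were lower at an unadjusted p under 0.05. Of all genes, edgeR called 6 lower and DESeq2 called 56 lower. The sebaceous median was -0.48, beside 0.02 over all genes tested. The 3 with the smallest p were *Far2*, a fatty acyl-CoA reductase of wax synthesis (log2 fold change -1.72 ± 0.26, edgeR adjusted p = 0.0680), *Dgat2l6*, an acyltransferase of the wax synthase family (-1.07 ± 0.23), and *Elovl3*, an elongase of very long chain fatty acids (-1.06 ± 0.24).

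The skeletal muscle list had all 23 genes above 0, with a median log2 fold change of 1.06. None was called by edgeR, 20 had an unadjusted p under 0.05 and 13 were called higher by DESeq2. Over all 20168 genes tested by edgeR, 10670 were above 0, 1000 were higher at an unadjusted p under 0.05, and DESeq2 called 98 higher. The smallest p were those of the sarcomere genes *Tnni2* (1.23 ± 0.23) and *Actn2* (1.29 ± 0.24) and of desmin, *Des* (1.30 ± 0.24). The hair follicle median was -0.26, with 0 called by either tool, 2 lower at an unadjusted p under 0.05, and the smallest p for the inner root sheath keratins *Krt71* (-0.73 ± 0.24), *Krt28* (-0.53 ± 0.22), and *Krt25* (-0.57 ± 0.26). The keratinocyte median was 0.20, also with 0 called by either tool and with 2 genes higher and 1 lower at an unadjusted p under 0.05. These were the differentiation keratins *Krt1* (0.79 ± 0.16) and *Krt10* (0.48 ± 0.14) and the basal keratin *Krt15* (-0.60 ± 0.21).

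The adipocyte median was 0.27, with 0 called by edgeR, 3 higher at an unadjusted p under 0.05, and 2 called higher by DESeq2. The smallest p were those of the adipokines *Retn* (1.42 ± 0.35) and *Cfd* (1.09 ± 0.33) and of the lipase *Pnpla2* (0.66 ± 0.23). *Cfd* and *Pnpla2* overlapped between groups. On this list of 16, 12 genes were above 0 and 4 below it, beside 10670 and 9498 of all 20168 genes tested. The 4 include the adipokine *Lep* (-0.74 ± 0.34), named here after its values were seen. The Schwann cell median was 0.39, with 0 called by either tool. *Ncmap* (0.64 ± 0.31) and *Pmp22* (0.37 ± 0.18), of peripheral myelin, had an unadjusted p of 0.0664 and 0.0704 by edgeR. Each of these log2 fold changes is from edgeR with its SE.

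The genes nearest to *Scd1* in pattern were found as those with the smallest root mean square difference from its centred log2 profile over the 6 libraries, among 12329 genes with a mean normalized count of at least 100. They were *Slc1a1*, a glutamate and cysteine transporter (difference 0.11), *Tmem45b* (0.11), *Tmem56* (0.13), *Dgat2l6* (0.13), and *Calml3*, a calmodulin-like protein of epithelia (0.18). *Slc1a1* had 172 ± 19.2 normalized counts in WT and 69.1 ± 11.1 in DKO, and *Tmem56* had 1944 ± 81.9 and 893 ± 251. Of the other members, *Fads2* came 116th by this measure (difference 0.42), *Fads3* 223rd (0.48), and *Fads6* 692nd (0.57). *Scd2* came 1880th (0.63), *Fads1* 2100th (0.64), and *Scd3* 11130th (0.88). *Scd4* was below the count limit and was not ranked. The fold of *Scd3* was larger than that of *Scd1*. The measure is a description over 6 libraries that share the group difference.

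Enzymes that supply and extend the substrates of the desaturases mostly had lower means in DKO. In this list of 19 genes, 15 of the 18 tested had a log2 fold change below 0, against 9498 of all 20168 genes. Their median was -0.31, beside 0.02 over all genes. An unadjusted edgeR p under 0.05 with lower expression was found for 9, against 2.54% of all genes. One call of lower expression, 1 of 18, came from edgeR, against 0.0298% of all genes. By DESeq2, 2 were called lower, *Elovl6* and *Elovl3*, against 0.285% of all genes it tested. In the other direction, 1 gene had an unadjusted edgeR p under 0.05, *Hacd1*, a dehydratase named here after its values were seen (log2 fold change 0.61 ± 0.21, no overlap). The gene called by edgeR was *Elovl6*, which elongates palmitate to stearate, the substrate of SCD1. It fell from 7853, 8602, and 6723 normalized counts in WT to 1901, 3041, and 2401 in DKO, with a log2 fold change of -1.66 ± 0.18 (SE) and an edgeR adjusted p of 0.0155. *Hacd2*, a dehydratase of the elongation cycle (-0.74 ± 0.12, edgeR adjusted p = 0.103), and *Elovl5*, an elongase of polyunsaturated fatty acids (-0.61 ± 0.12, edgeR adjusted p = 0.168), did not overlap between groups. *Fasn*, the fatty acid synthase, had 8292 ± 1680 normalized counts in WT and 6595 ± 1330 in DKO, with overlap.

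The 6 genes of the electron transfer list, of cytochrome b5 and its reductase family, had a median log2 fold change of 0.00. The list includes the outer mitochondrial cytochrome b5, so this median is not one of the desaturases' electron donors alone. By edgeR and by DESeq2 0 were called, and at an unadjusted p under 0.05 1 was higher and 1 lower. *Cyb5a*, the microsomal cytochrome b5, had 1112 ± 73.2 normalized counts in WT and 1031 ± 294 in DKO, and *Cyb5r3*, its NADH-dependent reductase, had 1623 ± 97.7 and 1967 ± 606. Both overlapped between groups. *Cyb5r2* (0.75 ± 0.23) and *Cyb5r4* (-0.35 ± 0.15), other reductases of this family, had log2 fold changes of opposite sign without overlap.

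**Figure D5:**
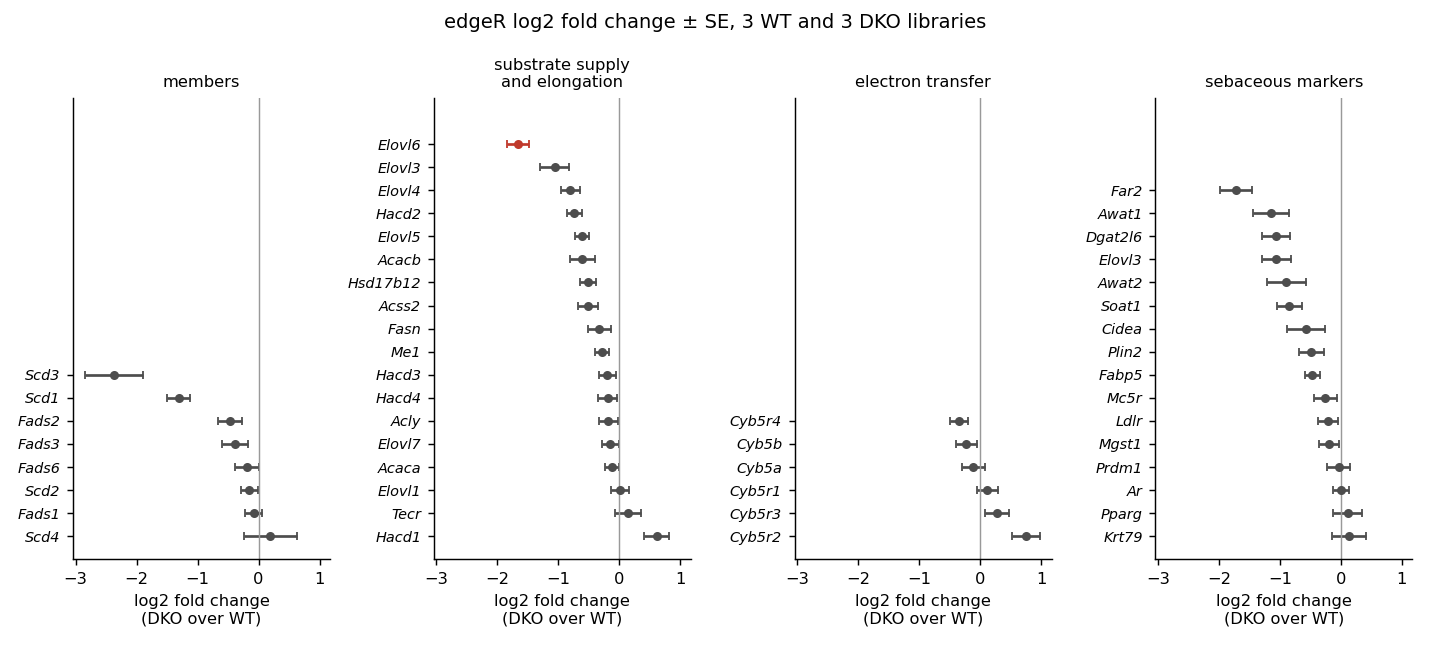
edgeR log2 fold changes of DKO over WT (x axis) with SE bars for the desaturase genes, for genes of substrate supply and elongation, for genes of electron transfer, and for sebaceous gland markers, each sorted by value. Red marks the 1 gene called, *Elovl6*, at -1.66; most values of the elongation and sebaceous panels are below 0, and those of electron transfer lie on both sides of it.

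Regulators of desaturase transcription had values on both sides of 0, with 12 of 18 above it, beside 10670 of all 20168 genes. Their median log2 fold change was 0.10. By edgeR and by DESeq2 0 were called, and 1 was lower at an unadjusted p under 0.05. *Srebf1*, which encodes the sterol-regulated activator SREBP-1, had 1348, 1453, and 1615 normalized counts in WT and 1420, 1880, and 1138 in DKO, with overlap and a log2 fold change of 0.01 ± 0.18. *Insig1*, which retains SREBP in the endoplasmic reticulum and is itself an SREBP target, had 1719 ± 35.0 in WT and 1167 ± 285 in DKO without overlap (-0.56 ± 0.17, edgeR adjusted p = 0.422). *Insig2* (-0.31 ± 0.14) and *Nfya*, a subunit of the CCAAT-binding factor NF-Y (0.23 ± 0.13), also had no overlap. For *Insig2* this was by a hair, with the lowest WT library at 947.9 normalized counts and the highest DKO library at 947.7. The unadjusted edgeR p was 0.0534 for *Insig2* and 0.110 for *Nfya*. *Insig2* was lower and *Nfya* higher in DKO.

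Genes that activate or esterify acyl chains had a median log2 fold change of -0.09 over 14 genes, with 0 called by edgeR or DESeq2. Lower expression at an unadjusted edgeR p under 0.05 was found for 3, against 2.54% of all genes. The acyl-CoA synthetase *Acsl5* (-0.55 ± 0.13), the sterol acyltransferase *Soat1* (-0.84 ± 0.20), which is also on the sebaceous list, and the diacylglycerol acyltransferase *Dgat2* (-0.31 ± 0.13) had the smallest p, and none of them overlapped between groups. Other lipid desaturases had a median of -0.06 over 5 genes tested, with 0 called by edgeR or DESeq2 and 1 higher at an unadjusted p under 0.05. *Degs2*, which makes phytoceramide in epidermis, had 140 ± 20.3 normalized counts in WT and 248 ± 50.8 in DKO without overlap (0.83 ± 0.20, edgeR adjusted p = 0.274), in the direction opposite to *Scd1*. *Tmem189*, of ether lipid synthesis, had 438 ± 35.0 and 409 ± 100.1, with overlap.

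Promoter sequences were at hand for 5 of the 8 members, *Scd3*, *Scd4*, *Fads2*, *Fads3*, and *Fads6*, from RefSeq on GRCm38.p6. These sequences each have 250 bases before and 50 after the RefSeq gene start. They were searched on both strands for CCAAT (the NF-Y box), CACGTG (an E-box), TCACNCCAC (a sterol response element), AGGTCA (a nuclear receptor site), and GCCNNNGGC (an AP-2 site), since KCTD1 and KCTD15 are known to bind AP-2 proteins. Of all 32544 promoters of this length, 37.4% held CCAAT, 7.2% CACGTG, 1.2% TCACNCCAC, 16.2% AGGTCA, and 16.7% GCCNNNGGC. *Scd3* and *Fads2* are shown because their groups did not overlap, and *Fads3* because it neighbors *Fads2* and holds 2 CCAAT matches, with capitals for any match to these motifs. *Scd3* is at chr19:44203038-44203337 (plus strand), *Fads2* at chr19:10101454-10101753 (minus strand), and *Fads3* at chr19:10041298-10041597 (plus strand).
Scd3: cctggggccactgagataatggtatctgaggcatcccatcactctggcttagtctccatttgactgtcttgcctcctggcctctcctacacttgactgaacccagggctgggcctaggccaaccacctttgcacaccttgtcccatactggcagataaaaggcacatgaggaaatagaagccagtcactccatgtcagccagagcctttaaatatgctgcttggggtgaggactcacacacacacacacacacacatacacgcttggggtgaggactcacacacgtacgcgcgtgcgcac
Fads2: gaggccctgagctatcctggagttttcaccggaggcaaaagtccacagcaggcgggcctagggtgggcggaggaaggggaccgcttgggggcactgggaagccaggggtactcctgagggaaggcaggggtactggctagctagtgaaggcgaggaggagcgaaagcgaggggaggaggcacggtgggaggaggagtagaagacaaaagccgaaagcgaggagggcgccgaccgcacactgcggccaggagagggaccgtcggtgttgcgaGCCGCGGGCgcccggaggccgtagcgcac
Fads3: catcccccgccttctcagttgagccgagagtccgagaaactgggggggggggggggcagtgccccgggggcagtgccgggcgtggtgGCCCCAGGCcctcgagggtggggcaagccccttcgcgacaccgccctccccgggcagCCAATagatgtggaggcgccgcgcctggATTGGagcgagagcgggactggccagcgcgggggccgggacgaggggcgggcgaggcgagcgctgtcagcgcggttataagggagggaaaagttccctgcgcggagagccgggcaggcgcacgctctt
The *Scd3* and *Scd4* promoters held none of the 5 motifs in this window. The *Fads2* promoter held 1 GCCNNNGGC match, 21 bases after the RefSeq start. The GENCODE M21 transcript of *Fads2* begins at chr19:10101746 (minus strand) and that of *Scd4* at chr19:44333092 (plus strand). Most of the *Fads2* window, and of the *Scd4* window at chr19:44333076-44333375, therefore lies within the span of these transcripts. The *Fads3* promoter held CCAAT matches 106 and 78 bases before the start and a GCCNNNGGC match 163 bases before it. The *Fads6* promoter held AGGTCA matches 121 and 69 bases before the start. These are matches of letters and not measured binding.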

How the data were processed

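Total RNA from full-thickness P4 back skin of 3 WT and 3 DKO mice was sequenced by the authors as rRNA-depleted, paired-end 150-base libraries. Per the submitters' processing notes and methods, reads were trimmed with Trimmomatic 0.36, mapped to GRCm38 with STAR 2.5.2b, and counted per gene with featureCounts (Subread 1.5.2). The deposited values are these raw counts, whole numbers per gene without normalization. Strand and multi-mapping settings are not given in the sources used here, so antisense or near-identical genes may share reads. Gene symbols were matched to 48970 of the 49315 identifiers, or 99.3%. Groups were taken from the sample labels.

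Counts were tested with edgeR 4.0.16 (quasi-likelihood F test, filterByExpr, TMM) in R 4.3.3, with Benjamini-Hochberg adjustment over 20168 genes. Calls required an adjusted p under 0.05 together with a log2 fold change beyond 1 in either direction. DESeq2 1.42.0 was an alternative. Ratios used counts plus 0.5 and an exact permutation test over libraries. Counts were scaled to a mean effective library size of 15179000 to give normalized counts. P-values measure the spread between mice; nothing in the labels gives separate litters. Depth of 11263863 to 17643043 counts per library limits *Scd4* and *Scd3* most. Coding sequences (GENCODE M21) were aligned with Biopython 1.88 and MAFFT 7.526. A planned comparison of protein sequences was not made.

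The named genes are the 8 members, the 2 targeted genes, the 3 genes with the smallest edgeR p in each gene list, the 5 nearest to *Scd1*, and *Elovl6*, *Fasn*, *Cyb5a*, *Cyb5r3*, and *Srebf1*; some of these are not reported here. The lists cover electron transfer, substrate supply and elongation, acyl use, regulators, other lipid desaturases, and markers of sebaceous gland, adipocyte, skeletal muscle, Schwann cell, hair follicle, and keratinocyte. *Elovl3*, *Soat1*, and *Pparg* stand on 2 lists each. The members and lists were chosen with earlier results of these data known. Alternatives were another tool, other scalings and filters, a replicate block, and leaving out each library.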

Additional observations from a re-analysis of the deposited data

How the results depend on the processing

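The number of members called was 0 with edgeR as reported. It was 2 with DESeq2 and with no filter on low counts (*Scd1* and *Scd3*), 1 (*Scd1*) with RLE size factors, with total counts, and when the skeletal muscle list was kept out of library sizes, and 0 with at least 10 counts in every library; the cause was not tested. Leaving out 1 library gave 0 to 2 called, with *Scd1* and *Scd3* called without DKO replicate 1 or DKO replicate 2, and 3 to 5 members lower without overlap, where 8.56% to 15.2% of all genes were lower without overlap. Over all genes, 14 were called as reported, 154 with DESeq2, 210 with no filter, 22 with total counts, 21 without the muscle list in library sizes, and 2 to 36 when 1 library was left out. Over the 13 alternatives, the edgeR or DESeq2 adjusted p of *Scd1* ranged from 2.65e-08 to 0.310 and that of *Scd3* from 2.66e-07 to 0.684. All members but *Scd4* kept the sign of their fold change in all 13. *Scd4*, at 0.19, ranged from -0.084 to 0.54 when 1 library was left out, and was below 0 without WT replicate 1 (-0.079) or without DKO replicate 1 (-0.084). The log2 ratio of *Fads2* to *Fads3* ranged from -0.20 to 0.053, and was above 0 only without WT replicate 3. The labels share a number across groups without saying what it marks. Deviations of the WT and DKO library that alone carry 1 number in their group correlated with r = 0.230 over 20168 genes, and a fit with that number as a replicate block called 2 members, *Scd1* and *Scd3*, among 35 genes in all. The ratios between members kept their sign under the replicate block. All genes tested had a median log2 fold change of 0.02, and no scaling moved it by more than 0.1. Counts per library limit *Scd4* (18 to 53 counts) and *Scd3* in DKO (27 to 205 counts).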
